A study of Mus musculus with 10 samples.

Results

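The Hox genes were taken as the protein-coding members of the HoxA, HoxB, HoxC and HoxD clusters, by their symbols. There were 39 of them among the 35275 genes of the deposited table, 11 in HoxA, 10 in HoxB, 9 in HoxC and 9 in HoxD. They were measured by RNA-Seq of whole lungs from CD1 mouse pups at postnatal day 6 (P6), when secondary septa divide the air sacs. In Dll4+/- pups a lacZ reporter stood in place of 1 copy of Dll4, which encodes a Notch ligand of endothelial cells, and this was so in all tissues rather than in a chosen cell type. Dll4+/+ littermates, with both copies intact, were the controls, and the labels name no treatment besides genotype. Values were at hand for 4 libraries of either genotype, and in each the labels give 2 females and 2 males. They are named here by the replicate numbers in their labels, Dll4+/- replicates 1 to 4 and Dll4+/+ replicates 3 to 6. Levels are in FPKM (fragments scaled to the depth of the library and to exon length), which allows levels of different genes to be set side by side at the lengths the authors used. Those lengths equalled the annotated exon bases for 7 of the 13 Hox genes tested below and were shorter for 6, most of all for Hoxa3 (2591 against 6014 bases).

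Hox genes encode homeodomain transcription factors that give cells their position along the head to tail axis. The members of a cluster lie in a row, are transcribed in the same direction and are numbered from the 3′ end, and genes with the same number in different clusters are paralogs. Low numbers are active early and in anterior structures, and high numbers later and in posterior structures, limb tips and the urogenital tract. In the mouse lung, Hox genes of the 3′ and middle parts of the clusters are known mainly from the mesenchyme, and loss of Hoxa5 disturbs the trachea, airway branching and alveoli. Hox proteins bind DNA with TALE cofactors of the Pbx, Meis and Pknox families, and Polycomb and Trithorax complexes keep the clusters silent or active.

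Depth was alike in the 8 libraries, from 17201662 to 22927840 fragments, and 13248 to 13721 genes reached an FPKM of 1. Dll4 was lower in every Dll4+/- library (11.4 to 20.7 FPKM) than in every Dll4+/+ library (22.7 to 31.3 FPKM). Weights that limma estimated for the libraries were lowest for Dll4+/- replicates 1 and 4 (0.128 and 0.245) and Dll4+/+ replicate 3 (0.282), against 1.77 to 4.15 for the other 5. Dll4+/- replicates 1 and 4 were also the 2 heterozygous libraries labelled male, so labelled sex and a low weight cannot be told apart among the heterozygotes. Dll4+/- replicate 2, labelled female, had 20.3 FPKM of the Y-linked Ddx3y and 0.27 FPKM of Xist, which goes against its label. The other libraries labelled female had 0 FPKM of Ddx3y and 65.9 to 74.8 FPKM of Xist. Those labelled male had 15.5 to 21.4 FPKM of Ddx3y and at most 0.69 FPKM of Xist. The genotype comparison and that of labelled sex are given with and without Dll4+/- replicate 2 and the libraries of low weight. For the contrasts within a labelled sex, leaving out Dll4+/- replicate 2 keeps 1 heterozygous library labelled female, and only the median interaction is given. The fits without Dll4+/- replicate 1 or 4 likewise keep 1 heterozygous library labelled male. The label of whole lung fitted the markers, with Tcf21 of lung mesenchyme at 199 to 414 FPKM in the 8 libraries and all 14 mesenchymal markers above the filter described below.

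In the mouse build GRCm38, with gene models from GENCODE M21, HoxA spans chr6:52155590-52260880 on the minus strand. HoxB spans chr11:96194316-96368256, HoxC chr15:102921103-103036852 and HoxD chr2:74668310-74765142, each on the plus strand. Promoter sequences of 3 members are shown because their levels lay at opposite ends of the range, the highest gene of HoxA, the highest of HoxB, and the last gene of HoxD, which was listed at 0 in all 8 libraries. Each runs from 250 bases before to 50 bases after the start of transcription in RefSeq (GRCm38.p6), 5′ to 3′ on the gene's own strand, with each CG dinucleotide in capitals.
Hoxa5, chr6:52204538-52204837, minus strand: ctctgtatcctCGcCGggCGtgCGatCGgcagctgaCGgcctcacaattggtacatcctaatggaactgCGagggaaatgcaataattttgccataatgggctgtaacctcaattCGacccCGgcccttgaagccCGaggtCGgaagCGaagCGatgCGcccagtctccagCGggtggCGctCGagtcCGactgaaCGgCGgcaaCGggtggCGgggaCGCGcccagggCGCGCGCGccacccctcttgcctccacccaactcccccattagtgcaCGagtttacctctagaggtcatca
Hoxb4, chr11:96318017-96318316, plus strand: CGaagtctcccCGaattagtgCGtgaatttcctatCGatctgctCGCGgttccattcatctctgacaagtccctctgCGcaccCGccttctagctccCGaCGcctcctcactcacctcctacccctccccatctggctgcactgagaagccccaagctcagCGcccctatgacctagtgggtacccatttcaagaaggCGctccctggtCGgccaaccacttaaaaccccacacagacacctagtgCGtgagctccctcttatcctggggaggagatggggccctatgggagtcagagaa
Hoxd13, chr2:74667975-74668274, plus strand: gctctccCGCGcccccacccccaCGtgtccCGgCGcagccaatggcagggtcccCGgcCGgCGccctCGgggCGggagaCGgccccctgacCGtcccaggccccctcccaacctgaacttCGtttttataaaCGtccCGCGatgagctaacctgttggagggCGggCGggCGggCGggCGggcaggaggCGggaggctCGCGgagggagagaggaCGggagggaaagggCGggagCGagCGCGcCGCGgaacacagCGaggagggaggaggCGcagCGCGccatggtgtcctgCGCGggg

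The windows held 29 CG dinucleotides for Hoxa5, 14 for Hoxb4 and 37 for Hoxd13. RefSeq gave 24 such promoters for 22 of the 39 Hox genes, and their median was 14.5 CG, against 7 over all 32851 promoters of the table. Density of CG did not order the Hox genes by level. The promoters of 7 genes that reached an FPKM of 1 in at least 4 libraries held 9 to 29 CG, and those of 5 genes listed at 0 in every library held 4 to 37. The letters TATAAA, searched on both strands, were found in 4 Hox promoters and in 13.6% of all promoters. The letters TGATNNAT, a form bound by Hox and Pbx proteins together, were likewise in 4 Hox promoters and in 8.85% of all. A match of letters is a description of the window and not a measured site.

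The microRNAs that lie inside the clusters and are given here were chosen because their seeds (bases 2 to 8, in capitals) face sequences in Hox messages. They are given from RefSeq, 5′ to 3′. They were not measured, since the libraries were made from poly-A RNA and the table is of genes.
miR-10a-5p, chr11:96317186-96317208, plus strand: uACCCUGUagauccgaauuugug
miR-10b-5p, chr2:74726074-74726096, plus strand: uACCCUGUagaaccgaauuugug
miR-196a-5p, chr11:96265187-96265208 and chr15:102973365-102973386, plus strand: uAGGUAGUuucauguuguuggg
miR-196b-5p, chr6:52230129-52230150, minus strand: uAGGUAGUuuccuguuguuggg

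The pair of miR-10 forms share the seed ACCCUGU, and the miR-196 forms share the seed AGGUAGU. The miR-10a locus lies 1059 bases from Hoxb4, the highest gene of HoxB, and miR-196a on chromosome 11 lies 6249 bases from Hoxb9. The complement of the miR-196 seed was present in the longest annotated 3′ untranslated region of 5 of the 13 Hox genes that passed the filter on level, Hoxa4, Hoxa5, Hoxa7, Hoxb6 and Hoxb7, and in 6.10% of 21022 protein-coding genes. For the miR-10 seed it was present in 2 of these 13, Hoxa3 and Hoxb3, and in 12.5% of all genes. The best known mouse target of miR-196a, Hoxb8, had no exact seed match but held the following stretch (GRCm38, plus strand), in which 21 of 22 bases were complementary to the microRNA and the capital marks the base that was not.
Hoxb8, chr11:96284888-96284909: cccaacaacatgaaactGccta

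Transcription was confined to the 3′ and middle parts of HoxA and HoxB at the level of 1 FPKM in at least 4 libraries, which 13 of the 39 genes reached. These were Hoxa2 to Hoxa7 and Hoxb2 to Hoxb8, each an unbroken row, and 0 of the 18 genes of HoxC and HoxD. A further 17 genes were above 0 in at least 1 library, and 9 were listed at 0 in all 8. The 13 genes had means of 1 FPKM or more, from 1.58 to 56.5 FPKM.

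**Figure D1:**
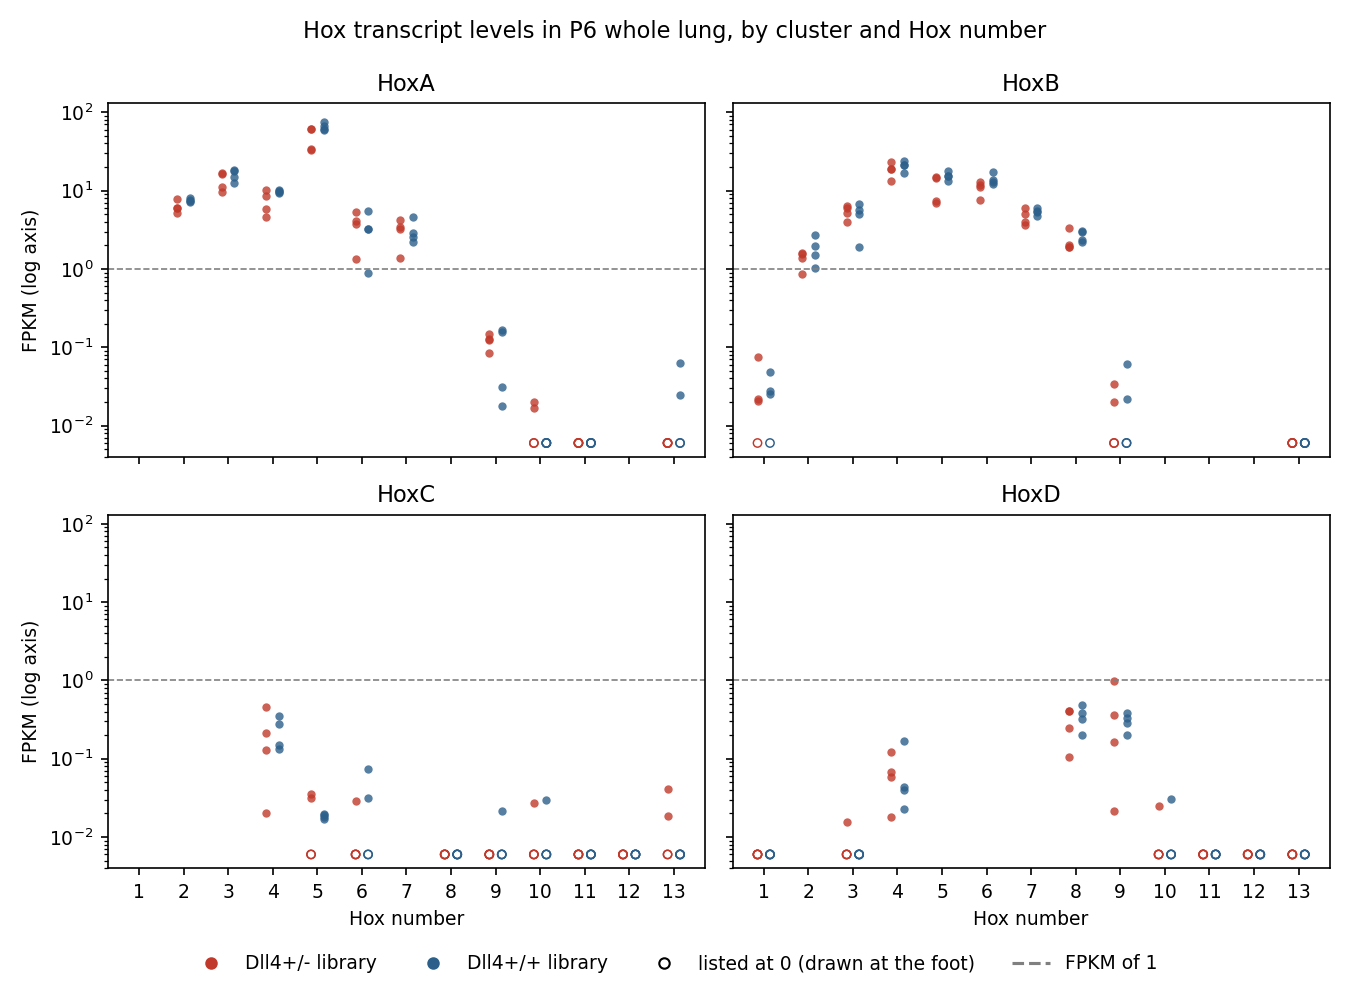
FPKM (log axis) of the Hox genes described here against Hox number, with a panel for each cluster and a point for each library, Dll4+/- in red and Dll4+/+ in blue, and libraries listed at 0 drawn as open circles at the foot. The levels rose to 56.5 FPKM on average at Hoxa5 and 19.6 FPKM at Hoxb4, and fell away beyond number 7 in HoxA and number 8 in HoxB.

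Hoxa5 (ENSMUSG00000038253, chr6:52201754-52204587, minus strand) was the highest Hox gene in every library. Its product is needed in the mouse for the trachea and the distal lung. It had 33.0, 61.7, 60.8 and 33.8 FPKM in Dll4+/- replicates 1 to 4 and 74.9, 67.3, 59.2 and 61.3 FPKM in Dll4+/+ replicates 3 to 6. Dll4+/- replicates 1 and 4 were low, and the other 2 heterozygous libraries lay within the range of the controls. Hoxa5 took 29.5 to 44.0% of the summed Hox FPKM of a library.

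Hoxb4 (ENSMUSG00000038692, chr11:96318267-96321638, plus strand), which is known for the growth of blood stem cells, came next with a mean of 19.6 FPKM. Its values were 13.3, 23.2, 18.9 and 18.9 FPKM in Dll4+/- replicates 1 to 4, and 16.6, 21.2, 23.8 and 21.2 FPKM in Dll4+/+ replicates 3 to 6. It was below Hoxa5 in 8 of 8 libraries, and the ranges of these 2 genes did not overlap. Among the 13 genes with a mean of 1 FPKM or more this was the only neighbouring pair in the order of levels whose ranges were apart.

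Hoxa3, which patterns the thymus and parathyroid, was the other leading gene of HoxA at the authors' lengths and had a mean of 14.7 FPKM. At annotated lengths it would have 6.32 FPKM, below Hoxa4 (8.48 FPKM) and Hoxa2 (6.53 FPKM). The values of Hoxa3 were 11.2, 16.6, 16.2 and 9.75 FPKM in Dll4+/- replicates 1 to 4. In Dll4+/+ replicates 3 to 6 they were 12.5, 17.7, 18.5 and 14.9 FPKM. The lowest heterozygous libraries were again replicates 1 and 4, and the groups overlapped.

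Hoxb5 (ENSMUSG00000038700, chr11:96303336-96306121, plus strand), which takes part in airway branching in the mouse, was the other leading gene of HoxB with a mean of 13.2 FPKM. It had 6.91, 14.6, 15.1 and 7.31 FPKM in Dll4+/- replicates 1 to 4, and 15.5, 15.3, 17.6 and 13.3 FPKM in Dll4+/+ replicates 3 to 6. The 2 low values were those of Dll4+/- replicates 1 and 4, as for its paralog Hoxa5. Hoxb6 followed at a mean of 12.4 FPKM (7.63 to 17.2 FPKM over the libraries).

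The remaining genes of the row were lower. Hoxa4 had a mean of 8.48 FPKM, and Hoxa2, which sets the identity of the second pharyngeal arch, had 6.89 FPKM. Hoxb3 and Hoxb7 had means of 5.10 and 5.03 FPKM. Hoxa6 (3.44 FPKM), Hoxa7 (3.07 FPKM), Hoxb8 (2.46 FPKM) and Hoxb2 (1.58 FPKM) closed the list of genes tested. Neighbours in this order overlapped in range, although within libraries Hoxb4 exceeded Hoxa3, Hoxb6 exceeded Hoxa4 and Hoxb8 exceeded Hoxb2 in 8 of 8. The other neighbours from Hoxa3 to Hoxb8 kept their order in 4 to 7 of 8 libraries.

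The limits of the active rows were steep. Hoxa7 and Hoxa9, whose starts lie 9235 bases apart, differed 28.7-fold in mean FPKM. Hoxb8 and Hoxb9, 10448 bases apart, differed 143-fold, with 0 to 3 fragments of Hoxb9 in a library. At the 3′ end of HoxB, Hoxb1, which marks a segment of the embryonic hindbrain, had 9 fragments in all libraries together. Inside the HoxA row, Hoxa5 exceeded Hoxa6, 4135 bases upstream, by 16.4-fold.

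In HoxD, Hoxd9 and Hoxd8 were the highest members, both below 1 FPKM. Hoxd9 had 0.992, 0.0214, 0.362 and 0.163 FPKM in Dll4+/- replicates 1 to 4, and 0.289, 0.199, 0.381 and 0.330 FPKM in Dll4+/+ replicates 3 to 6. These are 42, 1, 15 and 8 fragments in the heterozygous libraries, so Dll4+/- replicate 1 was high and replicate 2 low on few fragments. Hoxd8 had 0.402, 0.104, 0.411 and 0.248 FPKM in Dll4+/- replicates 1 to 4, and 0.319, 0.202, 0.486 and 0.382 FPKM in Dll4+/+ replicates 3 to 6, with overlapping groups.

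In HoxC the highest member was Hoxc4, a paralog of Hoxb4 and Hoxa4. It had 0.214, 0.129, 0.462 and 0.0206 FPKM in Dll4+/- replicates 1 to 4, and 0.132, 0.151, 0.274 and 0.356 FPKM in Dll4+/+ replicates 3 to 6. Hoxc5 came next with 1 or 2 fragments in each of 6 libraries, at 0.0353 FPKM or less. In Dll4+/- replicates 1 to 4 it had 0, 0.0313, 0.0353 and 0 FPKM, and in Dll4+/+ replicates 3 to 6 it had 0.0192, 0.0182, 0.0199 and 0.0172 FPKM.

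The genes listed at 0 in every library were Hoxa11 and Hoxd11, which pattern the forelimb and kidney, Hoxb13, known from the prostate, Hoxc8, Hoxc11, Hoxc12, Hoxd1, Hoxd12 and Hoxd13, the last a gene of the digits. A count of 0 allows up to 3 fragments in a library, which for these genes is 0.0311 to 0.169 FPKM by length and depth (counting error only). The other 5′ members, Hoxa10, Hoxa13, Hoxc9, Hoxc10, Hoxc13 and Hoxd10, had 1 to 4 fragments over all 8 libraries, as did Hoxc6 (4) and Hoxd3 (1). Hoxa9 and Hoxd4 were seen in every library, at 0.0180 to 0.165 FPKM and 0.0179 to 0.166 FPKM, on 1 to 11 and 1 to 8 fragments.

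Summed by cluster, HoxA reached 81.8 ± 24.6 FPKM (SD, n = 4) in heterozygous and 106 ± 6.52 FPKM (SD, n = 4) in control lungs. For HoxB the sums were 54.2 ± 10.8 FPKM in heterozygous and 64.8 ± 4.79 FPKM in control lungs. HoxC and HoxD summed to 0.252 and 0.753 FPKM in Dll4+/- and to 0.286 and 0.723 FPKM in Dll4+/+. HoxA held 51.5 to 64.0% of the Hox total, HoxB 35.5 to 48.1%, and HoxC and HoxD at most 0.325% and 1.41%. The highest HoxB share was in Dll4+/- replicate 4.

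The Hox total was 103, 169, 161 and 115 FPKM in Dll4+/- replicates 1 to 4 and 164.6 to 179 FPKM in Dll4+/+ libraries. Replicates 1 and 4 fell below every control, replicate 3 was just under the lowest control, and replicate 2 lay inside their range. The means were 137 ± 33.2 FPKM and 172 ± 6.15 FPKM (SD, n = 4 each), a ratio of 0.797. These sums are given as descriptions and were not tested.

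**Figure D2:**
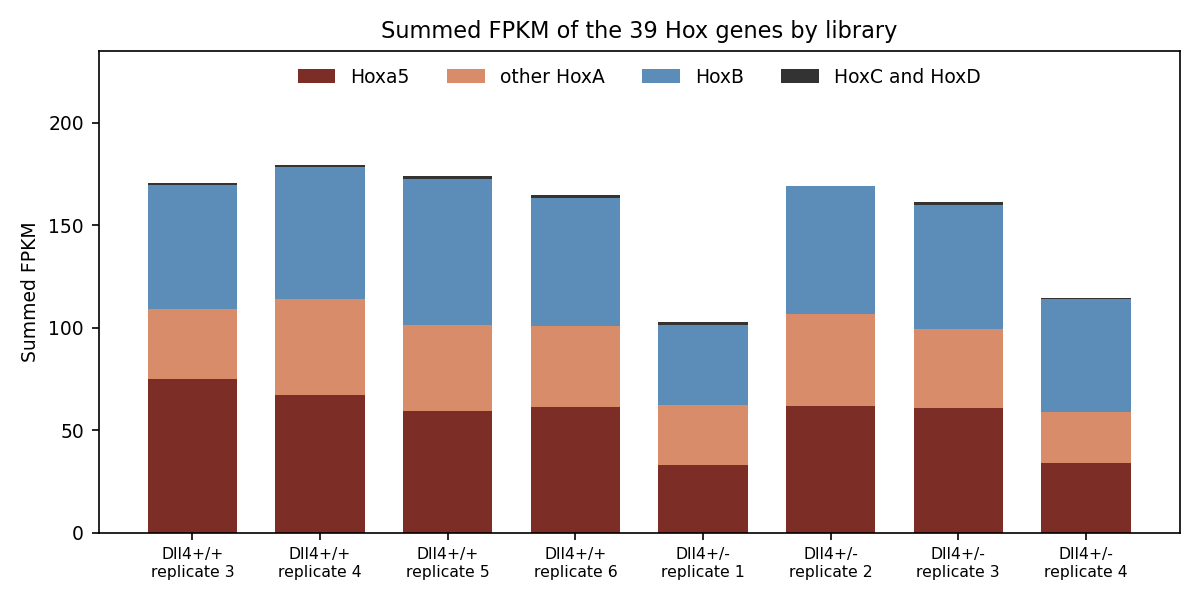
Summed FPKM of the 39 Hox genes in each library, stacked as Hoxa5, the other HoxA genes, HoxB, and HoxC with HoxD. The bars of Dll4+/- replicates 1 and 4 reach 103 and 115 FPKM, and those of the other 6 libraries 161 to 179 FPKM.

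By paralog number, group 5 held 44.4% of the Hox FPKM on average, group 4 18.5%, group 3 12.9% and group 6 10.4%. Group 5 summed to 58.3 ± 20.6 FPKM in Dll4+/- and 81.1 ± 7.04 FPKM in Dll4+/+, with 39.9, 76.4, 75.9 and 41.1 FPKM in Dll4+/- replicates 1 to 4. Group 7 had a narrow range over the libraries, from 7.42 to 9.98 FPKM. Groups 11 and 12 were at 0 in all libraries.

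The leading paralog was a fixed feature of most pairs. Hoxa2, Hoxa3 and Hoxa5 exceeded Hoxb2, Hoxb3 and Hoxb5 in 8 of 8 libraries, with median ratios of 4.60, 2.76 and 4.51. At annotated lengths the means of Hoxa3 and Hoxb3 would be 6.32 and 3.83 FPKM. Hoxb4 and Hoxb6 exceeded Hoxa4 and Hoxa6 in 8 of 8, and Hoxb7 exceeded Hoxa7 in 7 of 8. The ratio of Hoxa5 to Hoxb5 stayed between 3.36 and 4.83 although both genes ranged more than 2-fold in level. That of Hoxa6 to Hoxb6 ranged from 0.0523 to 0.545, lowest in Dll4+/+ replicate 3, where Hoxa6 had 14 fragments.

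Reads were not stated to be counted by strand, and several Hox genes share exons with antisense transcripts, so that their reads cannot be told apart. In GENCODE M21, 52.9% of the exon bases of Hoxb3 and 27.3% of those of Hoxb2 overlap Hoxb3os, and 20.4% of those of Hoxa7 overlap Hoxaas3. Hoxb5 shares 3.59% with Hoxb5os, and Hoxd3 and Hoxd4 share exon bases on the same strand. For Hoxa5, Hoxb4, Hoxb6, Hoxb7 and Hoxb8 no overlap with exons of another gene was found.

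The genotype comparison asked whether the level of Hox transcripts depended on the number of intact Dll4 copies. No Hox gene passed the test (limma on log2(FPKM + 1), adjusted over 13610 genes). Dll4 itself did not pass it either, at a log2 difference of -0.88 (SE 0.19, adjusted p = 0.811, limma). The test thus missed the gene that was altered, and a smaller Hox difference could be missed as well. Of the 13 Hox genes tested, 11 had a lower and 2 a higher mean in Dll4+/- on the log2 scale, where 54.1% of all genes were lower. The median log2 difference of the 13 was -0.24 against -0.02 over all genes. In whole lung, fewer cells that express a gene and less RNA in each cannot be told apart.

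At an adjusted p of 0.05, 0 of 13610 genes were called (0.0%), and the lowest adjusted p was 0.277. At an unadjusted p of 0.05, limma called 457 genes (3.36%), 260 of them lower in Dll4+/- (1.91%), and voom on recovered fragments called 413. Hoxa5 was the only Hox gene among these, with a log2 difference of -0.52 (SE 0.22, unadjusted p = 0.0441, adjusted p = 0.811, limma). All 4 heterozygous libraries were below the Dll4+/+ mean of 65.7 FPKM, and 2 of them lay within the Dll4+/+ range of 59.2 to 74.9 FPKM. Its unadjusted p rose above 0.05 when Dll4+/- replicate 1, Dll4+/- replicate 4 or any 1 Dll4+/+ library was left out. A two-sided exact permutation test of its FPKM gave p = 0.143, and the smallest p possible with 4 against 4 libraries is 0.0286.

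**Figure D3:**
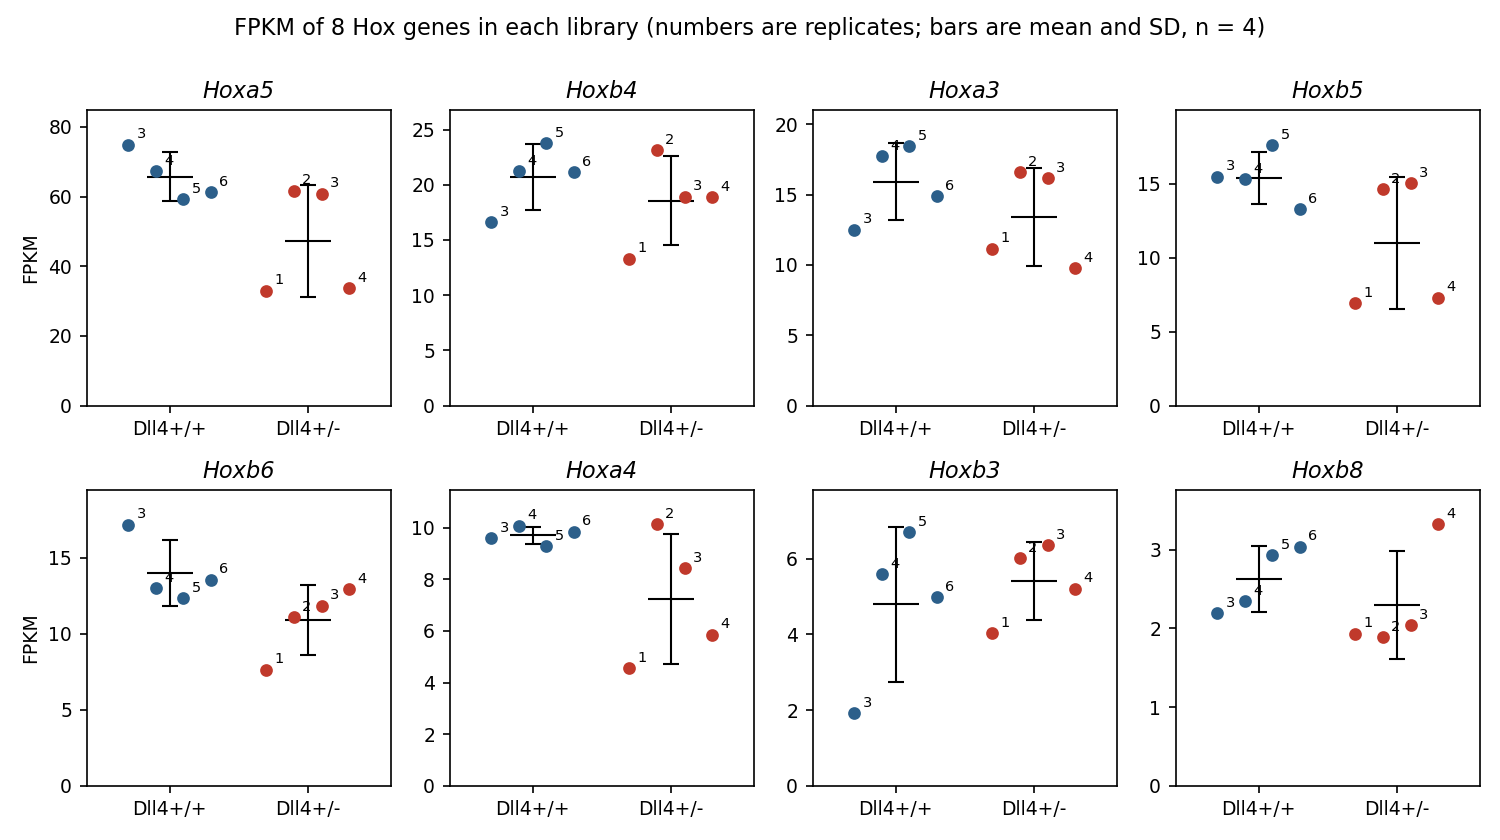
FPKM of 8 Hox genes in each library, Dll4+/+ in blue and Dll4+/- in red, with replicate numbers, the mean (long bar) and the SD (n = 4), each axis starting at 0. For Hoxa5 and Hoxb5, Dll4+/- replicates 1 and 4 lie together at 33.0 and 33.8 FPKM and at 6.91 and 7.31 FPKM, below all other libraries.

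Hoxb5 had the lowest log2 difference, -0.53 (SE 0.25), on the library values given above, and Hoxb3 the highest, 0.22 (SE 0.28). Hoxb3, which acts with Hoxa3 in the neck and hindbrain, had 4.03, 6.02, 6.36 and 5.21 FPKM in Dll4+/- replicates 1 to 4. In Dll4+/+ replicates 3 to 6 it had 1.92, 5.59, 6.71 and 4.99 FPKM. Dll4+/+ replicate 3 was lowest of all, and without it the log2 difference of Hoxb3 turned to -0.09. Hoxa6 and Hoxa7 also changed sign when a library was left out, Hoxa6 between -0.18 and 0.46 and Hoxa7 between -0.18 and 0.20.

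The other genes tested lay between these. Hoxa4 had a log2 difference of -0.43 (SE 0.20), with Dll4+/+ values of 9.30 to 10.1 FPKM and Dll4+/- values of 4.56 to 10.1 FPKM. Hoxb6 had -0.35 (SE 0.17) and an exact two-sided permutation p of 0.0571. Hoxa2 had -0.25 (SE 0.13), and Hoxb2, Hoxa3, Hoxb7, Hoxb4 and Hoxb8 had -0.25 to -0.15. None of these passed the adjusted threshold (limma).

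No Hox gene had groups that did not overlap, where 3.14% of 20915 genes detected in at least 4 libraries did. Without Dll4+/- replicate 2, Hoxa2 and Hoxa4 were lower in every heterozygous library, where 8.75% of genes did not overlap. Without Dll4+/- replicate 4, Hoxb6 and Hoxb8 were, against 7.46% of genes. Hoxb6 was also apart without Dll4+/+ replicate 5 (5.89% of genes), and Hoxb5 without Dll4+/+ replicate 6 (5.72% of genes), both lower.

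By median, the lowest Hox levels were those of 2 heterozygous libraries. Relative to the Dll4+/+ mean, the median deviation of the 13 genes on the log2 scale was -0.46 in Dll4+/- replicate 1 and -0.29 in replicate 4. In Dll4+/- replicates 2 and 3 it was 0.03 and -0.10, and in the Dll4+/+ libraries -0.18 to 0.12. Dll4+/- replicate 1 had the lowest value of the 8 libraries in 7 of the 13 genes. Dll4+/- replicate 4 had the lowest value in 2 genes and the highest in 2, Hoxb7 and Hoxb8. Dll4+/- replicate 2 and Dll4+/+ replicate 3 also had the lowest value in 2 genes each. Without Dll4+/- replicates 1 and 4 the median log2 difference was -0.06, 8 genes were lower and 5 higher, and 0 had an unadjusted p under 0.05 (limma, 2 against 4 libraries). Without Dll4+/- replicate 1 alone the median was -0.14, and without Dll4+/- replicate 4 alone -0.25. Without Dll4+/+ replicate 3 it was -0.25, with all 13 genes lower.

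In the fit without either heterozygous library labelled male, Hoxa5 had a log2 difference of -0.09 (SE 0.11) and Hoxb5 -0.04 (SE 0.11). Hoxa3, Hoxb4 and Hoxa7 turned to 0.06, 0.03 and 0.23. The highest were Hoxa6, which went from 0.17 to 0.49 (SE 0.44), and Hoxb3, from 0.22 to 0.40 (SE 0.36). Hoxb6 went from -0.35 to -0.26, Hoxb7 from -0.18 to -0.26 and Hoxb8 from -0.15 to -0.28 (SE 0.13 to 0.14 in this fit). Hoxb6 and Hoxb8 then had groups that did not overlap, both lower, and Hoxc5, at 1 or 2 fragments, was higher in both remaining heterozygous libraries, where 16.4% of all genes did not overlap.

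**Figure D4:**
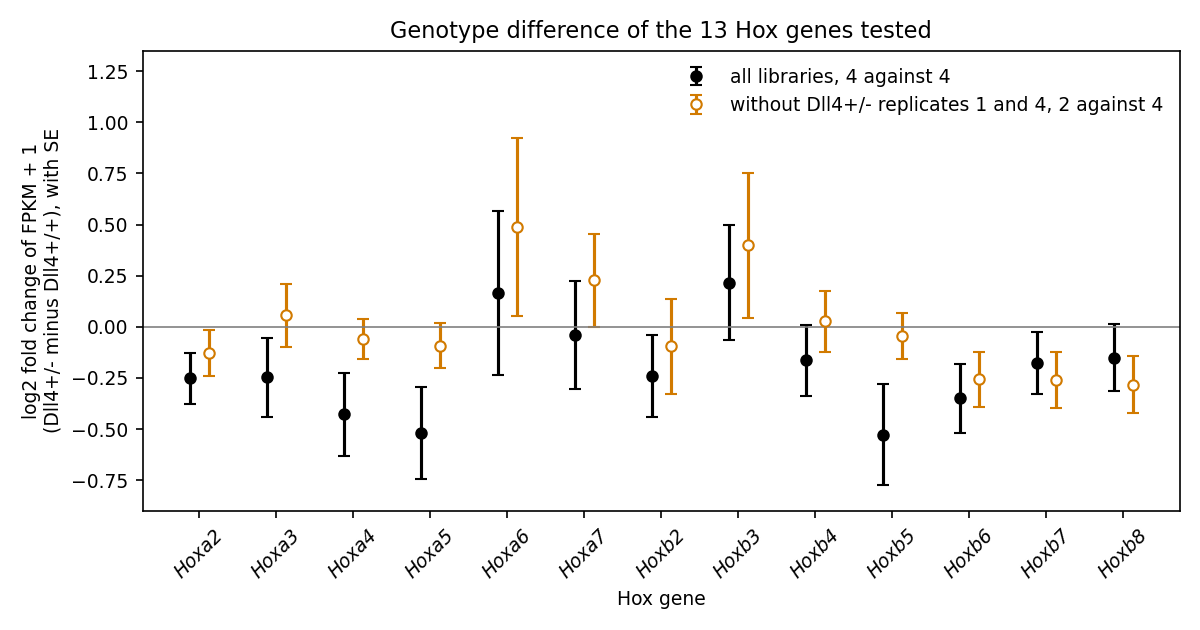
Log2 difference of FPKM + 1 (Dll4+/- minus Dll4+/+) with its SE for the 13 Hox genes tested, from all libraries (black) and without Dll4+/- replicates 1 and 4 (orange). Hoxa5 and Hoxb5 move from -0.52 and -0.53 to -0.09 and -0.04, Hoxb8 from -0.15 to -0.28, and Hoxa6 from 0.17 to 0.49.

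Markers of other cells moved with these libraries. The 14 mesenchymal markers had a median log2 deviation from the Dll4+/+ mean of -0.36 in Dll4+/- replicate 1 and -0.51 in replicate 4, against -0.07 and 0.17 in replicates 2 and 3 and -0.06 to 0.08 in Dll4+/+. Their summed level was 1249 to 2353 FPKM in Dll4+/- and 1825 to 2024 FPKM in Dll4+/+, and none was at 0. Among them Wnt2, a growth factor of lung mesenchyme, had an unadjusted p under 0.05, at a log2 difference of -0.65 (SE 0.27, adjusted p = 0.811, limma). It had 12.8, 30.6, 29.6 and 15.0 FPKM in Dll4+/- replicates 1 to 4 and 28.2 to 39.3 FPKM in Dll4+/+, low in replicates 1 and 4 as Hoxa5 was. The markers did not move as 1, with 9 lower and 5 higher in Dll4+/- on the log2 scale. Pdgfra and Pdgfrb had their highest values of all libraries in Dll4+/- replicate 1 (40.6 and 68.3 FPKM), and Gli1 in Dll4+/- replicate 4 (25.2 FPKM).

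The 7 endothelial markers deviated by 0.57 in Dll4+/- replicate 1 and by -0.61 in replicate 4, summing to 349 to 781 FPKM in Dll4+/- and 526 to 601 FPKM in Dll4+/+. The 9 epithelial markers deviated by 0.11 and 0.79 in these libraries, with sums of 21778 to 48005 FPKM in Dll4+/- and 24387 to 38211 FPKM in Dll4+/+. The 10 cell cycle genes deviated by -2.71 in Dll4+/- replicate 1 and -0.42 in replicate 4, with sums of 42.0 to 329 FPKM in Dll4+/- and 308 to 351 FPKM in Dll4+/+. In none of these 3 lists was a gene at 0 throughout. The part of any of them in the Hox values was not tested.

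**Figure D5:**
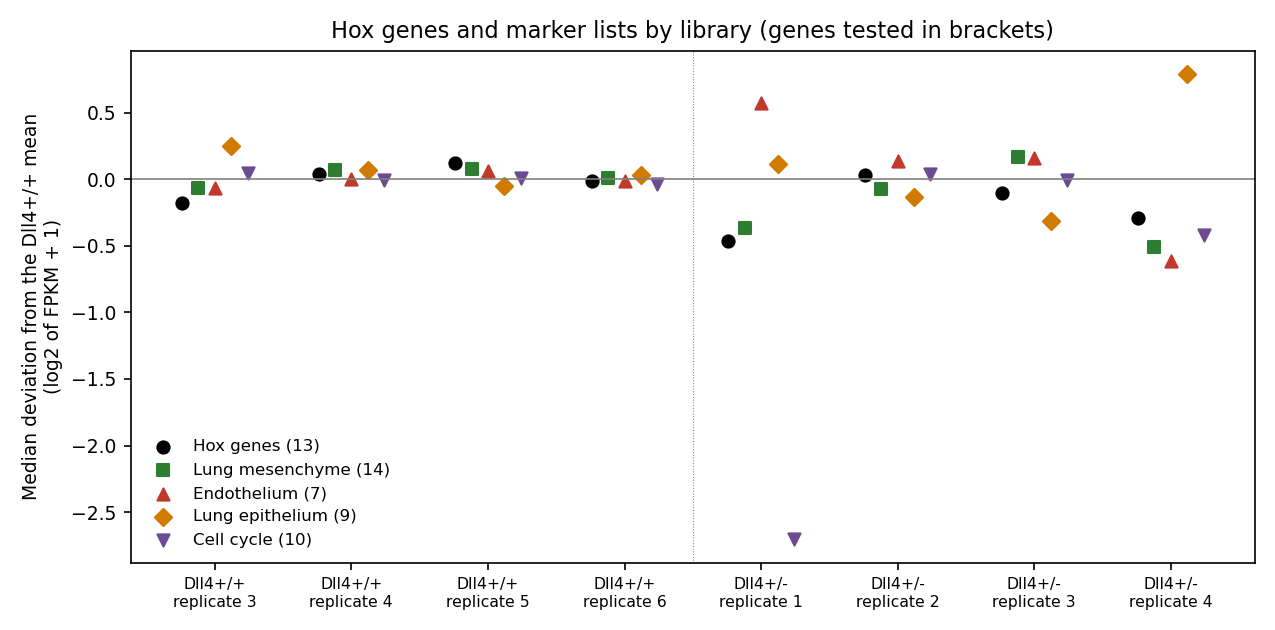
Median deviation from the Dll4+/+ mean, in log2 of FPKM + 1, of the 13 Hox genes and of the mesenchymal, endothelial, epithelial and cell cycle lists in each library. Dll4+/- replicate 1 has Hox genes at -0.46 with cell cycle genes at -2.71, and Dll4+/- replicate 4 has Hox genes at -0.29 with mesenchymal markers at -0.51.

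Markers of tissues that could be carried along with the lung were also summed. Skeletal muscle markers summed to 3.03 to 20.9 FPKM over the 8 libraries with Myod1 at 0 in all, cartilage markers to 2.31 to 12.96 FPKM, thymus markers to 0.107 to 0.971 FPKM, and nerve and neural crest markers to 1.21 to 4.50 FPKM. Heart muscle markers were present at 49.1 to 722 FPKM in Dll4+/- and 128 to 395 FPKM in Dll4+/+, lowest in Dll4+/- replicate 2 and highest in replicate 3. Blood cell markers summed to 39.1 to 62.9 FPKM. Only part of these lists passed the filter and was tested. This was 2 of 6 skeletal muscle, 2 of 6 cartilage, 0 of 6 thymus and 1 of 7 nerve and neural crest genes. For heart muscle it was 5 of 6 and for blood cells 4 of 8. None of the genes tested had an unadjusted p under 0.05 (limma), and the part of these lists in the Hox values was not tested.

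Labelled sex was then compared, with genotype as a term. Of the 13 Hox genes, 4 had an unadjusted p under 0.05, where 10.5% of all genes did, and 0 passed the adjusted threshold (limma). All 4, Hoxa3, Hoxb5, Hoxb3 and Hoxa6, had a higher mean in libraries labelled female. The log2 difference was 0.49 (SE 0.11) for Hoxa3 and 0.57 (SE 0.17) for Hoxb5. Hoxa3 had 16.2 to 18.5 FPKM in the 4 libraries labelled female and 9.75 to 14.9 FPKM in the 4 labelled male, without overlap. Hoxb3 did not overlap either, and these were 2 of 22 Hox genes, where 7.03% of 20915 genes did not overlap between the labelled sexes. The library labelled female that carried Ddx3y, Dll4+/- replicate 2, had 16.6 FPKM. Without it 3 Hox genes had an unadjusted p under 0.05 (4.89% of all genes), without Dll4+/+ replicate 4 there were 2 (8.32%), and without Dll4+/+ replicate 6 there were 6 (15.5%). Of the libraries of low weight, leaving out Dll4+/- replicate 1 (16.1%), Dll4+/- replicate 4 (11.4%) or Dll4+/+ replicate 3 (8.6%) gave 4 each.

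Among libraries labelled male, the genotypes differed at an unadjusted p under 0.05 in 6 of 13 Hox genes, against 17.2% of all genes, and among those labelled female in 0 of 13, against 1.1% of all genes (limma, 2 against 2 libraries). The count among those labelled male was 3 without Dll4+/+ replicate 4 or 5, against 1496 of the 13610 genes in either case. The difference between the labelled sexes itself, the interaction, had an unadjusted p under 0.05 for Hoxa5, Hoxb5 and Hoxa4, against 7.61% of all genes. Its median over the 13 Hox genes was 0.19, and 0.04 without Dll4+/- replicate 2, against 0.05 over all genes in both fits. Hoxa5 had a log2 difference of -0.999 (SE 0.15) among libraries labelled male and -0.04 (SE 0.15) among those labelled female, which include the one with Ddx3y, with an adjusted interaction p of 0.529 (limma). At the adjusted threshold 0 Hox genes were called in either contrast with all libraries, where 0.00735% of all genes were called among libraries labelled male and 0.022% for the interaction.

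The heterozygous arm of the contrast among libraries labelled male was Dll4+/- replicates 1 and 4. With Dll4+/- replicate 4 left out, so that replicate 1 alone stood for the heterozygotes labelled male and was assumed to vary like the other groups, Hoxa5, Hoxb5, Hoxa4 and Hoxb6 were called among those labelled male at the adjusted threshold, as were 25.6% of all genes. The interaction then called Hoxa5, Hoxa4 and Hoxb5, and 10.8% of all genes. With Dll4+/- replicate 1 left out, Hoxa5 and Hoxb5 were called in the same contrast, along with 2.42% of all genes, with log2 differences of -0.98 (SE 0.16) and -0.88 (SE 0.15). Labelled sex, the low median of the mesenchymal markers and the low weight of these 2 libraries cannot be told apart. Dll4+/- replicate 2, which carried Ddx3y against its label, had a weight of 2.21, a median mesenchymal deviation of -0.07 and 61.7 FPKM of Hoxa5. Sex by these transcripts was not tested.

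The partners of Hox proteins were measured alongside. All 9 TALE cofactors (Pbx, Meis and Pknox genes) were tested and none had an unadjusted p under 0.05 (limma), with a median log2 difference of -0.01. Pbx2 was the highest at 39.5 to 61.3 FPKM. The largest differences were 0.27 (SE 0.25) for Pknox2 and -0.26 (SE 0.18) for Pknox1, and the sum of the 9 genes was 129 to 142 FPKM in Dll4+/- and 116 to 143 FPKM in Dll4+/+.

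Upstream, the 3 Cdx genes, which switch on Hox genes in the posterior embryo, were at 0.0498 FPKM or less. Retinoic acid, which acts through Rar and Rxr receptors, activates 3′ Hox genes. Of 18 genes of its pathway 12 were tested, 5 lower and 7 higher, none with an unadjusted p under 0.05. Aldh1a1, which makes retinoic acid, had the highest difference at 0.42 (SE 0.24), with 110.2 FPKM in Dll4+/- replicate 1 and 42.7 to 66.1 FPKM in the others, and Crabp1, a carrier of retinoic acid, the lowest at -0.72 (SE 0.44). Crabp1 had 3.14 and 5.17 FPKM in Dll4+/- replicates 1 and 4 and 10.9 to 16.3 FPKM in the other libraries.

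Of the chromatin regulators, 7 Trithorax and 16 Polycomb genes were all tested and none had an unadjusted p under 0.05 (limma). The Trithorax list had a median of 0.01, from -0.17 (SE 0.15) for Ash2l to 0.23 for Kmt2a (SE 0.16) and Kmt2d (SE 0.20), both histone methyltransferases. The Polycomb list had a median of -0.08, with 11 lower and 5 higher. It ran from -0.40 (SE 0.22) for Rbbp4, a histone-binding subunit, to 0.46 (SE 0.28) for Cbx7, a reader of methylated histone H3. Cbx7 had 5.30 FPKM in Dll4+/- replicate 1 and 1.16 to 2.94 FPKM in the other 7 libraries.

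Genes that flank the clusters were also compared. Of 16 present, 12 were tested, 9 lower and 3 higher, none with an unadjusted p under 0.05 (limma) and with a median of -0.12. They ran from -0.30 (SE 0.21) for Hnrnpa3, beyond HoxD, to 0.42 (SE 0.26) for Calcoco1, beyond HoxC. Evx2, next to Hoxd13, was at 0 in all libraries, and Evx1, next to Hoxa13, had at most 0.0159 FPKM. At the other end of HoxA, Skap2 had 40.6 to 53.2 FPKM.

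Of the noncoding transcripts of the clusters, 10 were present and 5 were tested. Hotairm1, at the 3′ end of HoxA, had 19.9 to 37.4 FPKM. Hoxb5os, antisense to Hoxb5, had 2.49 to 7.52 FPKM and the lowest log2 difference of the 5 tested, -0.41 (SE 0.27), with 2.54 and 2.49 FPKM in Dll4+/- replicates 1 and 4 and 3.75 to 7.52 FPKM in the other libraries. Hoxb3os had the highest, 0.18 (SE 0.15). Hottip, at the 5′ end of HoxA, Hotair, in HoxC, and Hoxa11os were at 0 in all 8 libraries. None of the 5 tested had an unadjusted p under 0.05 (limma).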

How the data were processed

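The authors deposited 1 table of FPKM values for 35275 genes, made from poly-A selected, paired-end libraries. The submitters' notes name CASAVA, STAR and GRCm38.p4, with no versions. Of 10 samples, 8 had columns, and 2 (Dll4+/+ replicates 1 and 2) were not analysed here. The deposited table also holds the authors' ratios and p-values, which were not used. An FPKM of 0.005, found in 239 genes, was set to 0. Depths were recovered from the FPKM steps. The absolute number was the commonest total (446 genes) among 771 genes taken as single fragments at their annotated exon lengths, and rests on those lengths. Fragments were then whole within 0.01 for 100% of the 13610 genes tested, with the length of each gene left free. The recovered length equalled the annotated one in 1449 genes.

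The filter kept genes that reached 1 FPKM in 4 libraries, and these were tested on log2(FPKM + 1) with limma 3.58.1 (R 4.3.3, mean-variance trend), with Benjamini-Hochberg adjustment over all genes at 0.05. The log2 scale understates changes of low genes. Single values were compared by exact permutation tests (scipy 1.17.1), and 22 Hox genes above 0 in at least 4 libraries were checked for overlap of the groups. Pups were littermates, but litters were not modelled, so p-values measure the spread between pups. Named genes were those with a mean FPKM of 1 or more, the 2 highest of each cluster, members under an unadjusted p of 0.05 and the extremes of each list. Of 161 symbols in 17 lists, 158 were in the table. The values of 1 member are not reported here. Members and lists were chosen with earlier results of these data known. Alternatives were another pseudocount (0.1), no filter, median-of-ratios scaling, voom on recovered fragments, library weights, sex as a term, a replicate block, 0.005 kept, and libraries left out. Sequences came from RefSeq (GRCm38.p6), positions and untranslated regions from GENCODE M21.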

Additional observations from a re-analysis of the deposited data

Results flagged for a closer look

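Within each genotype, 74 sets of 4 values (the 22 Hox genes above 0 in at least 4 libraries, the cluster sums and the paralog group sums) were examined for 1 library far from the other 3, which chance alone gives in about 1 of 20 sets, and 3 stood out. Hoxb8 had 3.33 FPKM in Dll4+/- replicate 4 and 1.89 to 2.04 FPKM in the other Dll4+/- libraries. Hoxd4 had 0.166 FPKM in Dll4+/+ replicate 4, which is 8 fragments, and 0.0227 to 0.0438 FPKM in the other Dll4+/+ libraries, which is 1 or 2 fragments. The summed level of paralog group 10 was 0.0602 FPKM in Dll4+/+ replicate 3, from 1 fragment each of Hoxc10 and Hoxd10, and 0 in the other 3.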

How the results depend on the processing

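The 13 Hox genes over the filter stayed 13 under median-of-ratios scaling and with any library left out, and 30 were above 0 with no filter. Genes called at the adjusted threshold numbered 0 in all, 3 with library weights (0 of them Hox genes) and 16 with the replicate block (0 Hox genes). Hox genes at an unadjusted p under 0.05 numbered 1, but 3 with median-of-ratios scaling (Hoxa4, Hoxa5, Hoxb5; 3.45% of all genes), 2 with library weights (Hoxb6, Hoxb8, 5.69%), 4 with labelled sex as a term (4.17%), 0 without Dll4+/- replicates 1 and 4 (3.84%), and 0 to 4 with single libraries left out. Leaving out Dll4+/- replicate 1 (2.67%), or any Dll4+/+ library (230 to 363 of the 13610 genes), gave 0. Leaving out Dll4+/- replicate 2 gave 4 (7.03%), replicate 3 gave 3 (5.19%), and replicate 4 gave 1 (Hoxb6, 4.31%). The median log2 difference of -0.24 became -0.0287 with no filter (30 genes), -0.0619 without Dll4+/- replicates 1 and 4, and -0.30 to -0.14 with single libraries left out. Hox genes whose groups do not overlap numbered 0 to 2 with single libraries left out (4.82 to 8.75% of all genes). Without Dll4+/- replicates 1 and 4 they numbered 3 (16.4%). For labelled sex the count was 4 (10.5% of all genes), and 2 to 6 with single libraries left out (4.21 to 16.1%).

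Signs turned for Hoxa7 with library weights (0.0335) and for Hoxa3 (0.0563), Hoxb4 (0.0263) and Hoxa7 (0.23) without Dll4+/- replicates 1 and 4. With single libraries left out, Hoxb3 ran from -0.0852 to 0.38, Hoxa6 from -0.18 to 0.46 and Hoxa7 from -0.18 to 0.20. Replicate numbers 3 and 4 were shared between genotypes, and the deviations of same-numbered libraries had correlations of -0.23 and -0.06. These values showed no pairing by number, but they are too few to exclude a shared litter. With the replicate block, which leaves 1 residual degree of freedom, Hoxb2 (0.11), Hoxb4 (0.0079), Hoxb8 (0.15) and Hoxa6 (-0.082) changed sign. In that fit 1 Hox gene (Hoxa5) had an unadjusted p under 0.05, as did 497 of all 13610 genes (limma). Leaving 0.005 as deposited and a pseudocount of 0.1 changed no count of Hox genes and no sign of those tested. The cause of these shifts was not tested beyond the libraries or genes each setting drops. Below about 0.1 FPKM a Hox gene rests on at most 6 fragments a library, so differences there were not detectable at this depth.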
